A study of Drosophila melanogaster with 2 samples.

Results

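The peaks described here are the weaker peaks of CG18011 at divergent promoters, 802 of the 3290 peaks on the list thresholded by the irreproducible discovery rate (IDR, a measure of agreement between replicates). Chromatin immunoprecipitation with sequencing was done on whole D. melanogaster embryos that stably express CG18011, a zinc finger protein, with GFP fused to its C terminus. The embryos were 0 to 24 h old and of mixed sex, chromatin was sonicated to 200 to 800 bp, and the fusion protein was recovered with an antibody against GFP. The 2 libraries are biological replicates of a single group, with no other condition, and no control library was analysed here. Embryonic stages and tissues are pooled, and the labels do not give the promoter behind the fusion gene.

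Members were chosen by their measured values and their place. The signal of the peak, as the peak caller of the authors scaled it, had to be below a limit that leaves out the 329 strongest IDR peaks, and the summit had to lie within 500 bp of a start site. That start had to belong to a protein-coding gene paired, at no more than 1000 bp, with another such gene on the opposite strand that points the other way. Start sites were all annotated 5′ ends of transcripts in the Ensembl models on dm6. A member was given the pair of its nearest paired start, and another start without a partner could lie nearer. Of 2961 weaker peaks, 1743 lay at protein-coding starts, and the 802 members made up 46.0% of those. The other 941 are called weaker peaks at other starts below. Divergent starts also held 73 stronger peaks and 2105 peaks of the pooled list that overlap no IDR peak, so that members were 26.9% of all these peaks at divergent starts. This share follows from the choice by signal.

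In a divergent promoter, a pair of genes is transcribed in opposite directions from start sites that lie close together, with their upstream sequences shared. Such pairs are common in the compact fly genome and are rich in genes that most cells use. Many of their promoters belong to the housekeeping type, which often lacks a TATA box and carries short words such as the DNA replication-related element (DRE), the binding site of the factor Dref, or the core words known as Motif 1, Motif 6 and Motif 7. The space between such starts is usually depleted of nucleosomes. CG18011 has been little studied, and the labels state nothing of its role at such promoters.

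To show what lies between the starts, the sequence is given for the 6 members of highest signal that have a spacing from 60 bp to under 300 bp, a summit between the starts and no annotated exon in between. Each runs on the plus strand from the first base of the minus-strand gene (named first) to the first base of the plus-strand gene, in dm6 as held by RefSeq. Capitals mark the 21 bases around the summit. Reps encodes an endocytic adaptor, l(2)gd1 an endosomal regulator of Notch, Coq4 a factor of coenzyme Q synthesis, Bdp1 a subunit of the RNA polymerase III factor TFIIIB, MED30 a Mediator subunit, Rev1 a DNA polymerase of damage bypass and GCS2beta a subunit of glucosidase II.
Reps/l(2)gd1, chr2L:11106645-11106943: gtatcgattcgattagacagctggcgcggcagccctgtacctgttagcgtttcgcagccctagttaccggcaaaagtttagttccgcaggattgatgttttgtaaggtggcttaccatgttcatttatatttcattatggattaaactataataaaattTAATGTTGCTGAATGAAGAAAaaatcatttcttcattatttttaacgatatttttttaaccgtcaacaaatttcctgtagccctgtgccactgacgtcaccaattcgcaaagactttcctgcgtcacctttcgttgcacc
Coq4/CG32176, chr3L:17433621-17433868: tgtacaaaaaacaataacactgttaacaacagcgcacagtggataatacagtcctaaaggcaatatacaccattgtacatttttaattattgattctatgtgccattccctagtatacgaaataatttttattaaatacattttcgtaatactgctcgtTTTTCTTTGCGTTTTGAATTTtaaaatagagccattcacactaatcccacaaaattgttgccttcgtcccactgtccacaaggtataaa
Bdp1/CG6565, chr2L:13373890-13374019: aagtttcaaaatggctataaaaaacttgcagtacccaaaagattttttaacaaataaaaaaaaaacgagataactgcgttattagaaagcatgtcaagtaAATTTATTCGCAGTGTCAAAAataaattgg
CG10747/Pyroxd1, chr2L:20091348-20091435: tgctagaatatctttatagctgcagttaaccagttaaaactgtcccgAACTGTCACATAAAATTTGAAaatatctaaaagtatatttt
MED30/Rev1, chr3L:654089-654363: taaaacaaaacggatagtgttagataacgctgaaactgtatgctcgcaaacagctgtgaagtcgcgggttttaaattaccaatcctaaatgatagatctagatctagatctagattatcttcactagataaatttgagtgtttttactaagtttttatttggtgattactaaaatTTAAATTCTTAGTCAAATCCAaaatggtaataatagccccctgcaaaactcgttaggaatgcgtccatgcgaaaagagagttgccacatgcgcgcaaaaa
GCS2beta/CG5131, chr2L:17484307-17484501: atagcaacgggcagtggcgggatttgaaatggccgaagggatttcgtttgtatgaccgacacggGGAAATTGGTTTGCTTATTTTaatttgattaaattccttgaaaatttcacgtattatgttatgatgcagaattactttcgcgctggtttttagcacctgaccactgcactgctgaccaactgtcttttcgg

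Of these 6 stretches, 4 held the TATA word TATAAA on either strand and 0 held the DRE word TATCGATA or the Motif 1 word GGTCACACT. Reps/l(2)gd1 had a signal of 208 in replicate 1 and one of 626 in replicate 2, and Coq4/CG32176 had 195 and 632. Divided by each library's median over the IDR peaks (64.6 in replicate 1 and 223 in replicate 2), these were relative signals of 3.01 ± 0.289 for Reps/l(2)gd1 and 2.93 ± 0.129 for Coq4/CG32176 (SD, n = 2 each). Bdp1/CG6565 had 2.87 ± 0.0644 and GCS2beta/CG5131 had 2.58 ± 0.0286 (SD, n = 2 each), while MED30/Rev1, at 1.85 and 2.85 in replicates 1 and 2, was less even between libraries. The 201 bp around the summit of GCS2beta/CG5131 do hold a DRE word, beyond the printed stretch. The 4 members of highest signal under the same limits that hold a DRE or Motif 1 word between their starts had the DRE in each case, and the word is in capitals in the stretches that follow. RpS25 and RpL34a encode ribosomal proteins, eIF3a a subunit of the initiation factor eIF3, EloB elongin B, Srp14 a protein of the signal recognition particle and Trmt61 a tRNA methyltransferase.
RpS25/CG4820, chr3R:11216287-11216535: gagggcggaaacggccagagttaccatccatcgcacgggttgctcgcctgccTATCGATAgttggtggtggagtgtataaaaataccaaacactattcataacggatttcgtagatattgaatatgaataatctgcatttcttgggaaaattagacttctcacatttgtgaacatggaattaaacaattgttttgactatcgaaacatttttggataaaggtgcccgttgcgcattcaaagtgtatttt
RpL34a/Trmt61, chr3R:26059267-26059496: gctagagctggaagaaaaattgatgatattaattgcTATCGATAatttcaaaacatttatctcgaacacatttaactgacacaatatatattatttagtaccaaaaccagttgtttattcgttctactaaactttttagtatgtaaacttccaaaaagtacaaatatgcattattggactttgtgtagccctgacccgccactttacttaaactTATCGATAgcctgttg
eIF3a/CG1074, chr3R:4433895-4433965: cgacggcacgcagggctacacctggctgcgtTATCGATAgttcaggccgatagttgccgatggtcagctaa
EloB/Srp14, chr3R:20579850-20580115: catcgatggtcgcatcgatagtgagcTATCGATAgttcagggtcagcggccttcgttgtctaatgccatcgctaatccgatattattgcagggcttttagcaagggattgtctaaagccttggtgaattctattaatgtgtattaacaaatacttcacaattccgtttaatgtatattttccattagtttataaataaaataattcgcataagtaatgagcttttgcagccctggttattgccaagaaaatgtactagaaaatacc

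The RpL34a/Trmt61 stretch held the DRE word at both ends, toward the start of either gene. RpS25/CG4820 had a relative signal of 2.18 ± 0.151, RpL34a/Trmt61 of 1.48 ± 0.0444, EloB/Srp14 of 1.16 ± 0.103 and eIF3a/CG1074 of 1.12 ± 0.226 (SD, n = 2 each).

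The members fell on 737 gene pairs with 1470 genes. Of these pairs 673 had a single member, 63 had 2 and 1 had 3 or more. The nearest pair was the only one in reach for 752 members, and the other 50 had 2 or more pairs in reach, up to 21. Among the 2667 divergent gene pairs of the annotation, 805 had a weaker IDR peak within reach of a start, which is 30.2%. A further 68 pairs had stronger IDR peaks alone, 1256 had only peaks of the pooled list outside the IDR list, and 535 had no pooled peak in reach.

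Pairs whose starts were 201 to 400 bp apart were occupied most often. The median spacing over members was 302 bp (exact order-statistic 95% interval 291 to 318), with the starts of the nearest pair. Counted per gene pair by its closest starts, the median was 285 bp (273 to 297) over the 805 pairs with a weaker peak and 301 bp (293 to 310) over all 2667 annotated pairs, and these intervals overlapped. A weaker peak lay at 43.5% of the 542 pairs spaced by 201 to 300 bp (exact binomial 95% interval 39.3 to 47.8) and at 39.0% of the 400 pairs spaced by 301 to 400 bp (34.2 to 44.0). At narrower spacing the share was 27.5% up to 100 bp and 24.4% from 101 to 200 bp, and at wider spacing it was 23.8% from 401 to 600 bp and 20.5% from 601 to 1000 bp (16.9 to 24.4). The intervals of the 201 to 300 bp class and of these 4 other classes did not overlap. Of the pairs that had any pooled peak in reach, 51.3% in the 201 to 300 bp class and 28.1% in the 601 to 1000 bp class had a weaker IDR peak. Intervals here and below cover counting error only, and neighbouring pairs can share a peak.

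**Figure D1:**
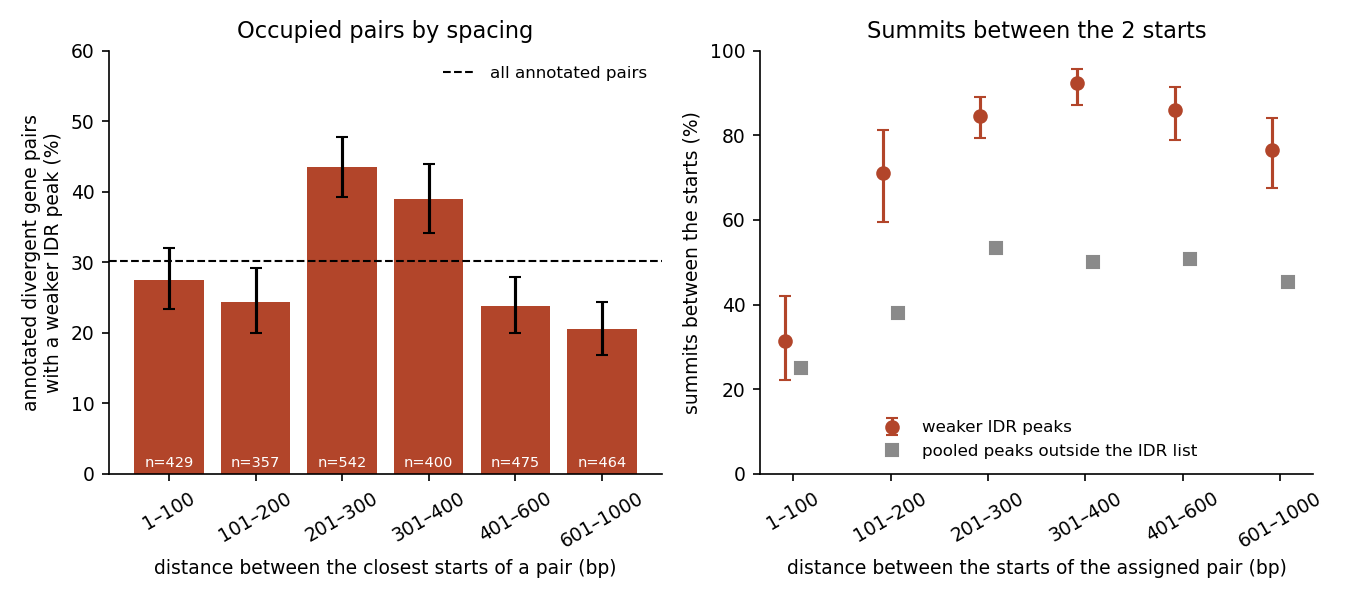
Left, share of annotated divergent gene pairs that have a weaker IDR peak within 500 bp of a paired start, by the distance between their closest starts in bp; bars are shares, error bars exact binomial 95% intervals, and the dashed line is the share over all pairs, 30.2%. Right, share of summits between the 2 starts for weaker IDR peaks (circles, exact 95% intervals) and pooled peaks outside the IDR list (squares), by spacing; the circles run from 31.5% up to 100 bp to 92.3% in the 301 to 400 bp class, where the square is at 50%. The pooled peaks overlap no IDR peak by choice, which can keep them from between the starts where a member lies.

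The closest starts were those of Atg6, an autophagy gene, and Pisd, a phosphatidylserine decarboxylase gene, which lie 1 bp apart on chr3R. The member there had its summit 4 bp into Atg6 and a signal of 30.9 in replicate 1 against 185 in the other library. The next were dpa/didum at 2 bp, CG3032/CG4593 at 6 bp, SerRS/CG17260 at 8 bp and CG2004/CG1785 at 12 bp. In each of these 5 the summit lay outside the pair, in an untranslated exon. At the other end, RpS7 and Anp were 1000 bp apart, and the summit lay 2 bp from the start of RpS7, a ribosomal protein gene. Smg5, a gene of nonsense-mediated decay, and Ance were 984 bp apart and held a member at each start. The summit at Smg5 was 120 bp inside the transcribed side with a relative signal of 2.29 ± 0.0484, and the summit at Ance was 18 bp upstream with 1.27 ± 0.170 (SD, n = 2 each). The remaining wide pairs were ND-75/CG1632 at 983 bp and Pax/Lectin-galC1 at 977 bp, with summits in introns. At ND-75/CG1632 the summit was 169 bp from the paired ND-75 start and 67 bp from another annotated ND-75 start.

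Summits of members lay mostly between the starts, except in the narrowest pairs. Over all members this held for 626 of 802, 78.1% (75 to 80.9), where 72.6% of the 73 stronger peaks (60.9 to 82.4) and 45.3% of the 2105 pooled peaks outside the IDR list (43.2 to 47.5) did so. The stretch between the starts made up a median of 23.2% of the sequence in which a member could have been counted, and 28.5% for the pooled peaks. These pooled peaks were chosen to overlap no IDR peak. At a pair that also held a member, this can leave them mainly sequence outside the starts. The choice thus favours fewer pooled summits between the starts, here and in midpoint distance and annotation below. How much of the differences this makes was not tested. In pairs of up to 100 bp the share was 31.5% (22.2 to 42.0), where 25% of the pooled peaks in that class were between the starts, so that most summits of members there lay outside the pair. From 101 to 200 bp it was 71.2%, and in each wider class it was at least 76.6%. Over all pairs the placement was seen in each library on its own. Of the library summits over members, 79.0% in replicate 1 and 78.0% in replicate 2 lay between the starts, and 561 of 769 members that both libraries cover had both there.

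The distance from the summit to the nearer start had a median of at most 100 bp in each class of spacing. It was 28.5 bp in pairs up to 100 bp, 37.0 bp from 101 to 200 bp, 73.5 bp from 201 to 300 bp, 86.0 bp from 301 to 400 bp, 100 bp from 401 to 600 bp and 89.0 bp from 601 to 1000 bp. The median distance to the midpoint of the pair was, in the same order of classes, 55.5 bp, 48.5 bp, 52.8 bp, 96.5 bp, 144 bp and 320 bp. By these medians summits were nearer to the midpoint than to a start in the 201 to 300 bp class and nearer to a start in the other 5 classes. Over all members the median distance from the midpoint was 86.2 bp (76.0 to 98.0) and that from the nearest paired start was 71.0 bp (66.0 to 77.0). For the pooled peaks outside the IDR list these medians were 216 bp and 92.0 bp. Of the 626 summits between the starts, 283 were nearer the minus-strand gene and 342 nearer the plus-strand gene.

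**Figure D2:**
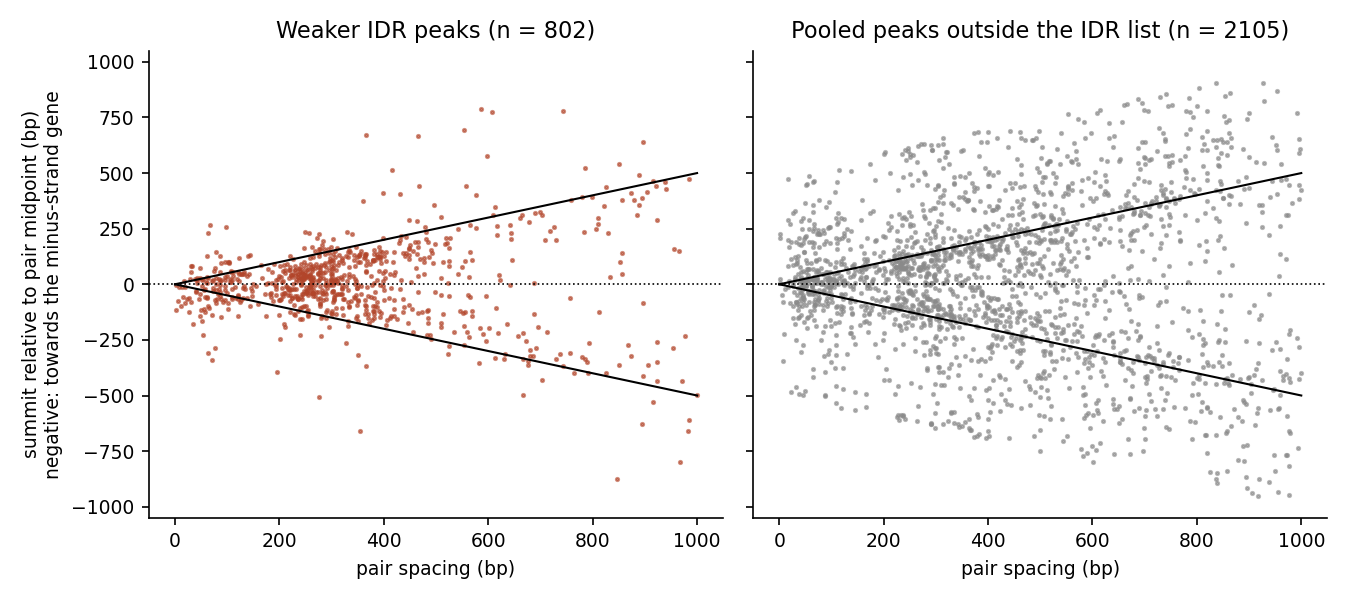
Summit position relative to the midpoint of the pair, in bp, against pair spacing, in bp, for the 802 weaker IDR peaks (left) and the 2105 pooled peaks outside the IDR list (right), 1 point per peak. Solid lines are the 2 start sites and the dotted line is the midpoint; points of the weaker IDR peaks lie between the solid lines for 78.1% and those of the pooled peaks for 45.3%. The pooled peaks overlap no IDR peak by choice, which can keep them from between the starts where a member lies.

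Set against the nearest start alone, 632 members, 78.8% (75.8 to 81.6), lay upstream of it, as did 83.0% of the weaker peaks at other starts (80.4 to 85.3). The median was 59.0 bp upstream for members and 128 bp upstream for weaker peaks at other starts. The intervals of these medians, 53.0 to 65.0 bp and 110 to 143 bp, did not overlap. A summit between paired starts cannot lie farther upstream of its nearest start than the midpoint of the pair. A weaker peak at other starts could lie up to 500 bp upstream. The choice of members thus favours a shorter median by geometry, and how much of the difference this makes was not tested. By annotation, 510 summits of members were intergenic, 208 lay in an untranslated exon, 77 in an intron and 7 in a coding exon. Coding exons held 0.873% of members and 12.8% of the pooled peaks outside the IDR list at divergent starts.

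The 176 summits outside their pair were on the side of the minus-strand gene in 96 cases and of the plus-strand gene in 80, by a median of 49.5 bp. In 48 cases the summit lay more than 100 bp outside. The 5 farthest were at Zn72D/Taf4 (496 bp), CG42637/SREBP (489 bp), Septin2/Srp72 (484 bp), dbe/PNUTS (472 bp) and CG43659/Gr59a (452 bp). These distances are from paired starts only, and the Zn72D/Taf4 summit was 82 bp from another annotated start of Taf4. Taf4 is a subunit of the general factor TFIID and SREBP a regulator of lipid synthesis. Their summits lay in introns at Zn72D/Taf4 and CG42637/SREBP, in untranslated exons at Septin2/Srp72 and dbe/PNUTS and in intergenic sequence at CG43659/Gr59a.

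In the 63 pairs with 2 members, often 1 summit was nearer each start. This was so in 46 pairs, 73.0%, with medians of 88.0 bp from the minus-strand start and 52.0 bp from the plus-strand start. Their spacing was wide, with a median of 383 bp over the 63 pairs against 291 bp over the pairs with a single member. At RpL28/eIF1, a ribosomal protein gene and an initiation factor gene 381 bp apart, a summit lay 56 bp from RpL28 with a relative signal of 2.07 ± 0.241. The other lay 54 bp from eIF1 with 0.741 ± 0.0571 (SD, n = 2 each). The gap between 2 summits of a pair was never under 199 bp and was 210 bp or less in 34 of the 63 pairs. The most common width of a peak was 416 bp, found in 398 members, and whether the peak caller sets the smallest gap was not tested. In each of the 13 pairs with summits over 300 bp apart, 1 summit was nearer each start, which a gap of that size favours by geometry. Each summit was set against its own nearest starts. At Elp6/Dic1, with summits 2478 bp apart, these were not the same starts for both.

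The signals of members spanned 179 to 846 with a median of 273 (263 to 284), and the upper end is set by the rule. Just inside the limit were CG8892/CG34126 at 846, CG14965/Hsp83 at 829 and DUBAI/Tmem18 at 828, and just outside were Mnat9/CG1792 at 867 and Trmt6/Ent2 and CG7841/Z600 at 896 each. By distance from a paired start, the outermost members were those at 496, 489 and 484 bp. The nearest peaks left out were at RpS19b/CG5854 (502 bp), CG31344/Caf1-55 (518 bp) and CG43171/CG46298 (527 bp). By spacing, the nearest pairs left out were Rgk1/CG11961 at 1007 bp, with 2 peaks, and CG9992/CG4239 at 1012 bp.

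Of the 10 members of highest signal, CG8892/CG34126 had a signal of 149.5 in replicate 1, one of 698 in replicate 2 and a relative signal of 2.72 ± 0.578 (SD, n = 2). CG14965/Hsp83, at the gene of the fly Hsp90 chaperone, had 178 and 644. DUBAI/Tmem18 had 169.6 and 655, and PRL-1/EndoGI, at genes of a phosphatase and an endonuclease inhibitor, had 192 and 653. CG32243/CG11357 had 206 and 616, Tes/qkr54B had 199.7 and 626, and Pax/Alp12, at the paxillin gene, had 163 and 655. Together with Reps/l(2)gd1, Coq4/CG32176 and Bdp1/CG6565 above, the 10 members had relative signals from 2.32 to 3.22 in replicate 1 and from 2.77 to 3.13 in replicate 2. Replicate 2 had the higher signal in all 10, as its median is higher, while relative signal was higher in it for 4 of them.

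A peak of each library covered the summit in 769 of 802 members, 95.9% (94.3 to 97.2), and 29 members were without one in replicate 1 and 5 in replicate 2. Members reached the strongest 3290 peaks of replicate 2 in 93.8% and of replicate 1 in 78.1% of cases, and 6 members were in neither. The ratio of relative signals, replicate 2 over replicate 1, had a median of 1.06 and was within 2-fold for 713 of 769 members. The SD over the 2 libraries was a median of 14.7% of the mean. Spearman's rho between the libraries was 0.679 over the 769 members, given as a description, since the members come from a list made by agreement between these libraries. Summits of the libraries were a median of 30 bp apart.

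**Figure D3:**
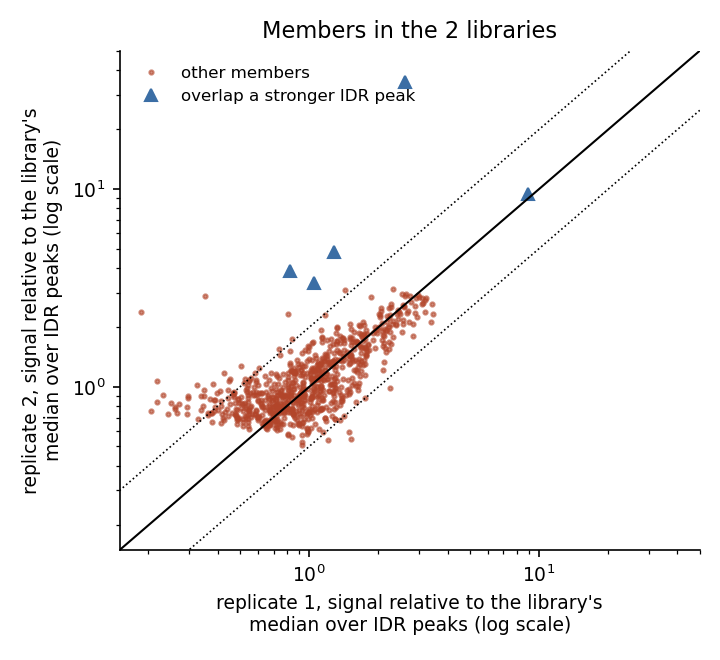
Relative signal of each member in replicate 2 against replicate 1, on log axes, 1 point per member covered by both libraries (n = 769). The solid line marks equal values and dotted lines a 2-fold difference, within which 713 members lie; triangles are the 5 members that overlap a stronger IDR peak.

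The libraries differed most at 5 members. CG31955/CG2818 had a relative signal of 2.60 in replicate 1 and 34.8 in replicate 2, Cp190/CG4338 had 0.186 and 2.38, and Ns2/POSH had 0.354 and 2.87. At dind/CG7706 the values were 0.217 and 1.07, and at Mkp/Mtch 0.822 and 3.84. The library value is that of the strongest library peak over the summit, which can belong to a neighbour: CG31955/CG2818 and Mkp/Mtch overlap a stronger IDR peak, and Cp190/CG4338 and Ns2/POSH share their pairs with a taller member 200 bp and 205 bp away. Gld/Syt4, CG13698/mRpS26 and LRR/CG30496 also overlap a stronger IDR peak. Without the 5 members that do so, the highest relative signal was 3.46 in replicate 1 and 3.13 in replicate 2.

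Of the words of housekeeping promoters, the DRE and Motif 7 were more frequent at members than at midpoints of all annotated pairs. Motif 1 and Motif 6 were not. Each word was searched on either strand in the 201 bp centred on the summit. The DRE word TATCGATA was in 13.2% of members (10.9 to 15.8), 4.89% of weaker peaks at other starts (3.60 to 6.47) and 8.84% of pooled peaks outside the IDR list at divergent starts, and in 0.748% of windows set 1000 bp to the left of members. Windows on the midpoints of all annotated pairs held it in 8.55%. The Motif 7 word CANCNCTA was in 23.7% of members, 11.6% of weaker peaks at other starts and 13.4% of the pooled peaks, and in 4.11% of the windows to the left. Midpoint windows held it in 12.6%. The Motif 1 word was rarer, at 4.11% of members (2.85 to 5.73), 3.40% of weaker peaks at other starts and 5.61% of the pooled peaks, with overlapping intervals. Midpoint windows held the Motif 1 word in 4.35%.

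The DRE and Motif 7 words sat nearer to the starts than to the summits, and Motif 6 the other way round. The DRE word was a median of 30 bp from the nearest paired start and 51 bp from the summit, the Motif 7 word 23.0 bp and 56.0 bp, and the Motif 6 word 74.5 bp and 38.5 bp. Summits of weaker peaks at other starts and of pooled peaks lay farther from a start, so the shares were also counted in windows centred on the nearest start. This was the nearest paired start for members and the nearest of all protein-coding starts for the other classes, so the windows are not fully alike. There the DRE was in 15.6% of members (13.1 to 18.3), 6.27% of weaker peaks at other starts and 14.6% of pooled peaks (13.1 to 16.2), and the intervals of members and pooled peaks overlapped. Motif 7 was in 27.2% of members (24.1 to 30.4), 12% of weaker peaks at other starts and 18.5% of pooled peaks (16.9 to 20.3). Motif 1 was in 6.98% of members and 9.93% of pooled peaks. A divergent pair brings a second promoter near each window, which a single start lacks, and how far this moves the shares was not tested.

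The word of GAGA repeats, GAGAG, showed the reverse order, at 15.1% of members, 28.3% of weaker peaks at other starts and 18.8% of pooled peaks. The share of members was near that of divergent pairs at large, as midpoints of all annotated pairs held the word in 14.5%. Midpoints of pairs with no pooled peak held it in 16.6%. The TATA word TATAAA was in 38.8% of members, 30.2% of weaker peaks at other starts and 24.3% of pooled peaks. Windows on the midpoints of all annotated pairs held it in 39.8%, and in windows on the nearest start it was in 26.1% of members (23.1 to 29.2), 16.5% of weaker peaks at other starts and 25.2% of pooled peaks (23.3 to 27.1), so that members and pooled peaks overlapped there. In windows on the summit the Motif 6 word GTATNTTT was in 10.5% of members, 11.6% of weaker peaks at other starts and 9.88% of pooled peaks. Midpoints of all annotated pairs held the Motif 6 word in 13.2%. Base composition differed between these windows, with a median G+C content of 35.3% for members, 37.8% for weaker peaks at other starts, 40.8% for pooled peaks and 48.8% for the windows to the left. An A+T-rich word such as TATAAA moves with it, and its part in the shares was not tested. Of all 8-base words ranked on the arms 3L, 3R and X by their excess over the windows to the left, 18 of the first 20 were A+T only, and the others were TATCGATA and ATCGATAG, which overlaps it. At least 1 of the DRE, Motif 1, Motif 6, Motif 7 and E-box (CAGCTG) words was in 55% of members and 37.0% of weaker peaks at other starts, which left 361 members with none of the 5.

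**Figure D4:**
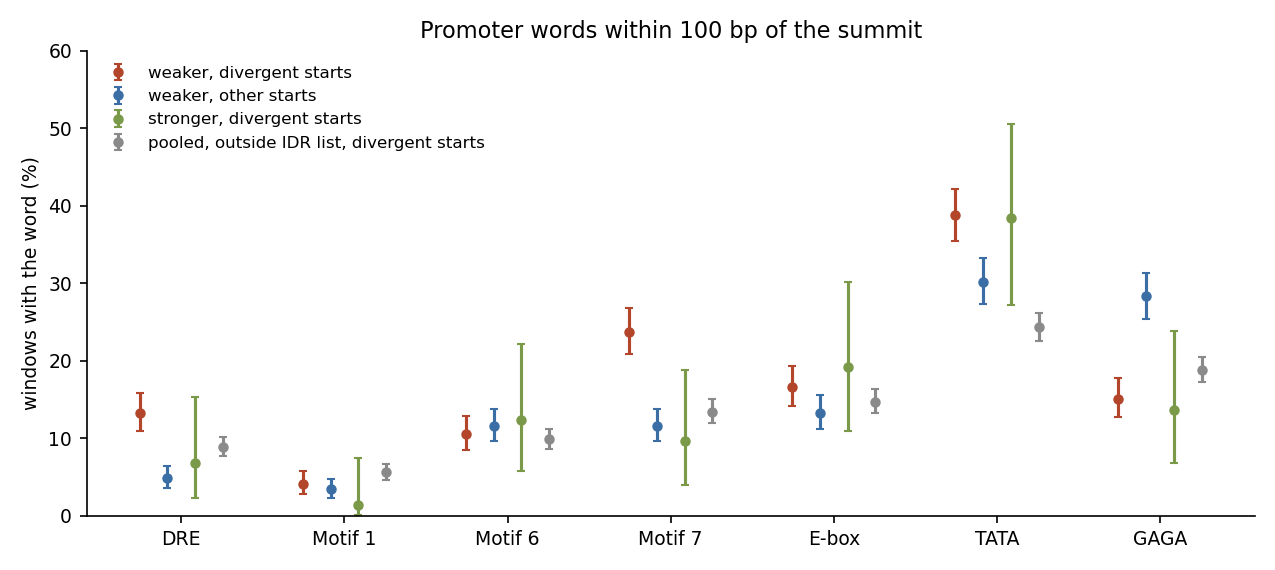
Share of 201 bp windows around summits that hold each word on either strand, in percent, for weaker peaks at divergent starts (n = 802), weaker peaks at other starts (n = 941), stronger peaks at divergent starts (n = 73) and pooled peaks outside the IDR list at divergent starts (n = 2105); error bars are exact binomial 95% intervals. Motif 7 is at 23.7% in the first class and 11.6% in the second, and GAGA at 15.1% and 28.3%.

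A stretch that holds Motif 7 words, in capitals, is that of CG10147/Bulli, shown because it is among the members of highest signal with the word, at 2.76 ± 0.886 (SD, n = 2). The values were 3.39 in replicate 1 and 2.14 in replicate 2.
CG10147/Bulli, chr3L:6488424-6488681: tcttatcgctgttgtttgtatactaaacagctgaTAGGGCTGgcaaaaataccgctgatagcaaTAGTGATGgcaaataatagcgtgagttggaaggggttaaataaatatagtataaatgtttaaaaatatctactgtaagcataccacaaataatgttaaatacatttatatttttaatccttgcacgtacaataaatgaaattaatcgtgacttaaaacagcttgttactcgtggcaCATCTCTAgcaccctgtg

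Members with a DRE word had pairs of a like spacing (median 288 bp) to those without (303 bp) and a like signal (264 and 276). Their summits were nearer a start, at 48 bp and 74.5 bp. This follows at least in part from the count, which took words within 100 bp of the summit, while the DRE lay near starts. Members with and without the Motif 7 word had medians of 57.0 bp and 80.0 bp, and those with and without Motif 6 had 71.0 bp each. The share with the DRE was 23.9% in pairs up to 100 bp, 16.4% from 101 to 200 bp, 10.1% from 201 to 300 bp, 15.4% from 301 to 400 bp, 8.53% from 401 to 600 bp and 10.8% from 601 to 1000 bp.

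Most genes of the cytosolic ribosome with a divergent start had a member. A member lay within reach of 1415 of the 5052 protein-coding genes at divergent starts, 28.0%, and of 42 of the 56 such ribosomal protein genes, 75% (61.6 to 85.6). The list was drawn by gene symbol, so it includes the related gene RpLP0-like. The highest signal was 728, at RpL14. RpL14 had relative signals of 2.88 in replicate 1 and 2.36 in replicate 2, RpL13A 2.46 and 2.40, and RpL19 2.02 and 2.01. Members at a ribosomal protein gene had a median signal of 316 and the other 752 members one of 270.

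Summits in these pairs lay mostly at the ribosomal protein gene rather than at its partner. With the strongest member of each gene, the summit was nearer to the ribosomal protein gene for 41 of 42, the exception being RpL34a, and the median distance was 27.0 bp. Over all 50 such members, 41 were nearer to it, 82.0% (68.6 to 91.4), and of the 9 nearer the partner 8 were on a pair with another member. The summit was within 60 bp of the ribosomal protein gene's start in 36 of 50, where 43.1% of all members were within 60 bp of their nearest paired start. Library summits had the same placement, with 41 of 49 nearer the ribosomal protein gene in replicate 1 and 41 of 49 in replicate 2. They come from library peaks over the member's summit and are not independent of it. A summit near the start was also found at the 20 weaker peaks at other starts of ribosomal protein genes. Of these, 16 were within 60 bp of the start, as were 22.7% of all weaker peaks at other starts. The pairs were wide, with a median spacing of 365 bp, and included RpL35/Rab18 at 922 bp with the summit 20 bp from RpL35, RpL8/msn at 916 bp with 7 bp from RpL8, and RpS28b/l(1)G0320 at 873 bp with 27 bp from RpS28b. The last 2 pairs held another member at the partner, 112 bp from l(1)G0320 with a signal of 406 against 409 at RpS28b, and 73 bp from msn with 187 against 393 at RpL8.

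The stretches of the 3 pairs of highest signal with a ribosomal protein gene, under the same limits as before, show this placement, with the 21 bases around the summit in capitals. Nelf-E encodes a subunit of the pausing complex NELF, and Dref encodes the factor that binds the DRE.
Nelf-E/RpL14, chr3L:8600879-8601006: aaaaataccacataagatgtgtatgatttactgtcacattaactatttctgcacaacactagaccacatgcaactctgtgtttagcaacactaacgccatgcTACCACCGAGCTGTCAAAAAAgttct
RpL34b/CG8132, chr3R:9401226-9401495: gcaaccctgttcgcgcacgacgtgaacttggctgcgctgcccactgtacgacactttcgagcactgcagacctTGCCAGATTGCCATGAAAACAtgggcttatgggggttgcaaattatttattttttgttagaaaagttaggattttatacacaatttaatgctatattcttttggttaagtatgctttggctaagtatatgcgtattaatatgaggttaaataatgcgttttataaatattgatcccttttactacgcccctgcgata
Dref/RpL13, chr2L:9967229-9967313: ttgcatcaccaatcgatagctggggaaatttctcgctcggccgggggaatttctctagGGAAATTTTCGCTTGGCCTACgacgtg

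The summit was 15 bp from RpL14, 83 bp from RpL34b and 16 bp from RpL13, whose pair with Dref is 84 bp wide. Relative signals were 2.62 ± 0.364 at Nelf-E/RpL14, 2.37 ± 0.0616 at RpL34b/CG8132 and 2.17 ± 0.190 at Dref/RpL13 (SD, n = 2 each). The DRE word was around the summit in 14 of the 50 members at ribosomal protein genes, 28.0%, and in 12.2% of the other members, and TATAAA in 18.0% and 40.2%. These 50 summits lay a median of 37.5 bp from the ribosomal protein gene's start. Over all members the DRE lay near starts, and TATAAA was rarer in windows on starts than on summits. How far this moves the shares was not tested.

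Mitochondrial ribosomal protein genes did not show this placement. Members were at 19 of 58, 32.8% (21 to 46.3), near the 28.0% of all genes at divergent starts. For 6 of the 19 genes the strongest member was nearer to them than to the partner, with a median distance of 152 bp. Examples were mRpS2, 152 bp from the summit in its pair with Mon1 (relative signals 2.95 and 2.25), and mRpL24, 174 bp in its pair with betaggt-I (2.55 and 2.08). Over all 20 such members, 7 were nearer the mitochondrial gene, 35.0% (15.4 to 59.2), an interval that does not overlap that of the cytosolic list. It includes the shares over all members, of which 47.3% were nearer the minus-strand gene and 52.6% nearer the plus-strand gene. In replicate 1, 7 of 18 library summits and in replicate 2, 8 of 20 were nearer the mitochondrial gene.

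**Figure D5:**
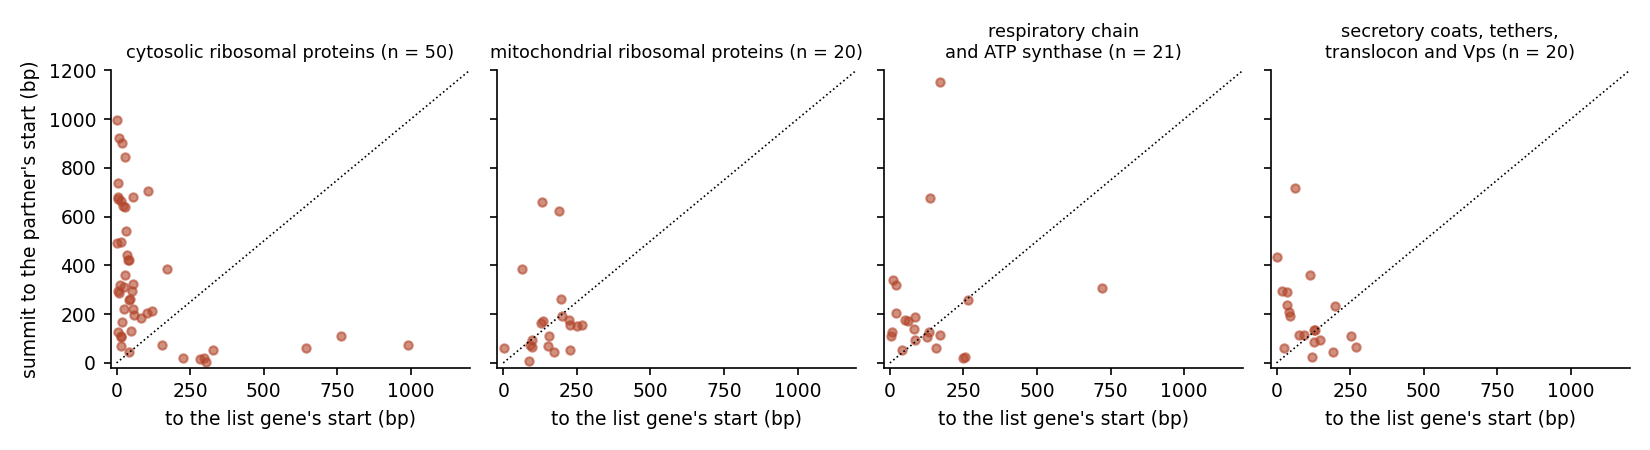
Distance from a member's summit to the start of a listed gene (horizontal, bp) against the distance to the start of its partner (vertical, bp), 1 point per member, for 4 gene lists. Points above the dotted line are nearer to the listed gene: 41 of 50 for cytosolic ribosomal proteins and 7 of 20 for mitochondrial ones.

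Respiratory chain and ATP synthase genes had members at 18 of 45, 40% (25.7 to 55.7), with ND-B16.6 of complex I at 2.06 and 2.50 and ATPsyngamma of ATP synthase at 2.53 and 1.89 the highest that had the summit at their own start. Genes of secretory coats, tethers and the translocon had 19 of 44, 43.2% (28.3 to 59.0), and peroxins, which build peroxisomes, 7 of 12, 58.3% (27.7 to 84.8). The intervals of peroxins and of respiratory chain genes include 28.0%, and that of the secretory list begins just above it. Proteasome genes had 6 of 26, initiation factors 6 of 21, aminoacyl-tRNA synthetases 7 of 22, Mediator and TFIID 10 of 31, RNA polymerase subunits 7 of 19, DNA replication 8 of 22, spliceosome Sm and U proteins 8 of 29, Rab GTPases 5 of 16, exosome and RNA decay 5 of 12, nuclear pore 5 of 19, the chaperonin CCT 1 of 7, TIM and TOM 2 of 5 and the anaphase promoting complex 2 of 6. The COP9 signalosome had 0 of 5 and cuticle proteins 0 of 12, and odorant and gustatory receptors had 2 of 26. No Hox or segmentation gene of the 24 listed was at a divergent start.

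In the lists of transcription and replication, the highest members were as follows. PolD2, a DNA polymerase delta subunit gene paired with CG13933, had a relative signal of 3.46 in replicate 1 and 2.33 in replicate 2, with the summit 121 bp from its start. The replication licensing gene dup (paired with SRPK) had 1.22 ± 0.175 and PCNA2 (with CG10366) 1.07 ± 0.0737 (SD, n = 2 each). Polr2B, the gene of the second largest RNA polymerase II subunit, had 1.96 ± 0.0149 with 140up, Polr2H had 1.65 ± 0.0580 and Polr3E 1.67 ± 0.114 (SD, n = 2 each). Among Mediator genes, MED27 had 1.99 ± 0.104 with elm and MED17 had 1.91 ± 0.253 with CG12321, beside MED30 above (SD, n = 2 each). The splicing genes snRNP-U1-C, Sf3b6 and U2af50 had 1.37 ± 0.465, 1.22 ± 0.138 and 1.30 ± 0.413 (SD, n = 2 each). PolD2 was the highest of these genes in replicate 1 and MED30 in replicate 2, and the splicing genes were among the lower ones.

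In the lists of translation and protein turnover, eIF4EHP, a cap-binding repressor gene, had 2.74 ± 0.0579 with its summit 226 bp away, nearer to CG18428, and eIF3h had 2.46 ± 0.541 (SD, n = 2 each). Of the synthetase genes, SerRS had 1.22 ± 0.535, IleRS 1.75 ± 0.253 and AsnRS 1.10 ± 0.00263 (SD, n = 2 each). The proteasome genes Rpn5, Rpn3 and Rpt5 had 1.31 ± 0.0582, 1.41 ± 0.274 and 1.03 ± 0.238, and CCT3 of the chaperonin had 0.856 ± 0.294 (SD, n = 2 each). Of the other proteasome genes, Rpn6 had 0.773 ± 0.120, Rpn2 0.711 ± 0.124 and Prosbeta1 0.561 ± 0.196 (SD, n = 2 each). The 6 proteasome genes thus lay on both sides of 1, the median IDR peak of a library.

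In the lists of trafficking and organelles, Vps33B, a gene of vacuolar sorting, had 2.90 ± 0.326 in its pair with Fur1 and the coatomer gene alphaCOP had 2.37 ± 0.257 (SD, n = 2 each). Vps36 had 1.48 ± 0.0250, Rab8 1.42 ± 0.0165, Rab39 1.18 ± 0.373 and Rab14 0.771 ± 0.142 (SD, n = 2 each). Among peroxins Pex10 had 1.47 ± 0.0264, Pex11c 1.31 ± 0.370 and Pex23 1.19 ± 0.0852 (SD, n = 2 each). Nup62 and Nup98-96 of the nuclear pore had 1.26 ± 0.139 and 0.860 ± 0.0730, Rrp6 and Pop2 of RNA decay 1.15 ± 0.174 and 0.819 ± 0.381, Tom7 and Tim9a of mitochondrial import 1.04 ± 0.230 and 0.613 ± 0.115, and Cdc16 of the anaphase promoting complex 1.45 ± 0.264 (SD, n = 2 each). The chemoreceptor genes Ir60e and Gr63a were the lowest of these, at 0.541 ± 0.409 and 0.488 ± 0.344, with summits 257 bp and 265 bp from them and nearer to their partners CG13585 and Lamtor4 (SD, n = 2 each).

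At 10 members, on 9 pairs, both genes were in a list. Pex16 and Pex14, both peroxins, shared a start region 535 bp wide with the summit 53 bp from Pex16 and a relative signal of 1.12 ± 0.366. Cog3 and Sec5, both of vesicle tethers, were 238 bp apart with the summit 45 bp from Sec5 and 0.797 ± 0.0452 (SD, n = 2 each). Csl4/Nup160, of the exosome and the nuclear pore, had 1.08 ± 0.258, RpL9/Nup154 had 1.37 ± 0.0301, Sec3/COX7B had 0.742 ± 0.00652, Rab18/RpL35 had 0.778 ± 0.175, Taf5/Pex6 had 0.835 ± 0.103 and Prosbeta1/Rrp42 had 0.561 ± 0.196 (SD, n = 2 each). RpL28/eIF1 is given above.

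Members were spread over the arms as 163 on 2L, 152 on 2R, 171 on 3L, 222 on 3R, 93 on X and 1 on 4. The share of divergent pairs with a member was 23.8% of 403 pairs on X (19.7 to 28.3), 31.0% on 2L (27.0 to 35.3), 26.7% on 2R (23.0 to 30.6), 32.6% on 3L (28.6 to 36.9) and 34.6% of 683 pairs on 3R (31.0 to 38.3), and 1 of 11 pairs on 4. The interval of X overlapped those of 2L and 2R and did not overlap those of 3L and 3R. Pooled or IDR peaks were in reach of 360 of the 403 pairs on X. Of the pairs with such a peak in reach, 26.7% on X had a weaker IDR peak. On 2L this share was 43.2%, on 2R 33.8%, on 3L 41.3% and on 3R 42.2%. The spacing, signal and place of members on X were like those elsewhere, with medians of 306 bp and 263 and 77.4% of summits between the starts.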

How the data were processed

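The deposited files were peak lists that the authors made from 2 ChIP libraries of CG18011-GFP embryos, with a signal for every peak. Per the labels' protocols chromatin was sonicated. Not given in the sources used here are the caller of peaks and its version, the threshold on IDR, the number of reads and any scaling by it, and a signal therefore has no counting interval. The optimal IDR list, the pooled list and a list per library on dm6 were used. The dm3 lists were not used here.

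Summits were matched to 19607 protein-coding start sites of Ensembl release 115 (BDGP 6.54) and to the RefSeq sequence of the same assembly in Python 3.11.15 with pandas 2.3.3, scipy 1.17.1 and pysam 0.24.0. A library's value was the signal of its strongest peak over the summit, divided by its median over the IDR peaks. Shares have exact (Clopper-Pearson) and medians exact order-statistic 95% intervals. No significance test was made, since a single group gives no contrast and members were picked by signal. Steps were tested on simulated data.

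Members, 22 gene lists and 13 words were chosen with earlier results of these data known. Named pairs are the 10 of highest signal, those at the extremes of spacing, of distance outside the pair and of difference between libraries, the highest of each list, pairs with both genes listed, and those beside each limit. Stretches on arm 2R and those with an annotated exon between the starts were left out of those printed. The ribosomal and Motif 7 stretches were chosen after their values were seen. Alternatives were other start sites, reaches, spacings, windows and pair assignments, the weaker peaks at or above the median of the IDR list, and each library alone. Values of some ribosomal protein genes are not reported here.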

Additional observations from a re-analysis of the deposited data

How the results depend on the processing

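Of 59 values from settings other than leaving out a library, 38 stayed within 1.5 times the count reported or within its 95% interval, and leaving out a library moved none of 14. One alternative kept only the weaker peaks with a signal at or above the median of the IDR list, still without the 329 strongest. It gave 384 members on 366 gene pairs, a median spacing of 289.5 bp, a median of 73.5 bp from the midpoint and 97.7% covered by both libraries. A single start per gene gave a median spacing of 290 bp and 71.7% of summits between the starts, and the pair of shortest spacing in reach gave 290 bp and 70.9%. A largest spacing of 500 bp gave a median spacing of 270 bp and 67.5 bp from the midpoint, and one of 2000 bp gave 349 bp and 115 bp. A reach of 1000 bp gave 70.3% between the starts and 102 bp from the midpoint. Shares with a word depend on the window by construction: the DRE was in 6.36% of members within 50 bp of the summit and 20.8% within 200 bp, and Motif 1 in 1.87% and 10.3%. With a window on the nearest paired start, chosen after seeing the data, Motif 1 was in 6.98%. Counting a library's own summit within 100 bp gave 92.0% covered by both. With 1 library in place of the IDR list there were 776 to 811 members, a median spacing of 301 to 318 bp and 77.1% to 78.9% of summits between the starts. For the other moved values the cause was not tested. No paired analysis was possible because the libraries form a single group. Read depth is not known, so no limit on undetected pairs can be given.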
